A study of Mus musculus with 23 samples.

Results

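Siglecs are receptors of immune cells whose outermost immunoglobulin-like domain binds sialic acid, the sugar that caps many glycans on a cell's own surface. Most of those related to CD33 carry inhibitory motifs in the cytoplasmic tail that recruit the phosphatases SHP-1 and SHP-2 and so dampen activation, and others pair with the activating adaptor DAP12. On mouse myeloid cells Siglec-F is best known from eosinophils and alveolar macrophages and also from some neutrophils of injured or tumour-bearing tissue, and Siglec-E is an inhibitory receptor of neutrophils and macrophages. Siglec-G belongs mainly to B cells, sialoadhesin (the product of Siglec1) to tissue macrophages, where interferon raises it, and CD33 to myeloid cells in general.

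Here 5 mouse genes of this family, Siglecf, Siglece, Siglecg, Siglec1 and Cd33, were followed across all groups of the series. They were chosen by name as a receptor family, with earlier results of these data known and with no threshold on their values, so the adjusted p-values below describe how large a difference was beside the spread between libraries and are not independent evidence for the choice. All 5 were found by gene identifier among the 21878 genes listed for sorted neutrophils and by symbol among the 55335 listed for whole lung, and 4 other Siglec genes (Cd22, Mag, Siglech and Siglec15) are given beside them.

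The 23 RNA-Seq libraries came from mice, with C57BL/6J as the study's WT strain, in 3 experiments. The labels give no age, and the study's methods give an adult age range for its mice in general. The paper introduces the whole-lung libraries after a depletion at an early age, so the age of those mice is not clear. In the first, CD45+CD11b+Ly6G+ neutrophils were sorted from the lung, peripheral blood (PB) and bone marrow (BM) of WT mice, with 3 libraries each. In the second, the same sort was applied to lung and PB of Piezo1-cKO mice and of WT controls, and each of the 4 groups had 2 libraries. The cKO mice carry homozygous loxP sites within Piezo1, the gene of a mechanically gated cation channel, and Vav1-iCre, which is active in the whole haematopoietic lineage, so the deletion is not restricted to neutrophils, and the labels call the controls WT without naming their alleles. In the third, whole lungs of WT mice and of mice with PMN deletion, in the study's methods an intraperitoneal anti-Ly6G antibody set against an isotype control, gave 3 libraries each, and there the neutrophils are a small part of the tissue. Lung and PB neutrophils, unlike those of BM, passed through a negative selection before the sort. The study's general tissue methods also describe a warm enzyme digestion for lung and none for PB or BM. For its ROS and phagocytosis assays the study left the enzymes out so that digestion would not activate the cells. If lungs were digested for sequencing, tissue and digestion cannot be told apart in lung against PB or BM. By the study's account the libraries of a tissue in the first experiment came from separate mice. For the other experiments the sources used here do not say whether libraries of a group came from different animals, so p-values there measure the spread between those libraries, which may be technical.

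Values are FPKM, fragments on a gene divided by its length and by the size of the library. The sorted libraries held 16502142 to 19330763 reads on genes in the tissue experiment and 9621002 to 15034628 in the Piezo1 experiment, recovered from the FPKM as described under the processing. Piezo1 itself was at 3 to 10 reads in every library of the Piezo1 experiment (5 and 5 in WT PB, 3 and 10 in cKO PB, 8 and 8 in WT lung, 7 and 4 in cKO lung), which cannot tell the genotypes apart, and values over the whole gene do not separate the exons between the loxP sites. Ly6g, the sorting marker, was between 50.6 and 781 FPKM in every sorted library and at most 0.577 FPKM in whole lung. On the deposited scale the median gene was lower in lung than in PB neutrophils by a log2 difference of -0.54, in lung than in BM neutrophils by -0.70, and in PB than in BM neutrophils by -0.12. Each difference is therefore also given after the libraries were rescaled by the median ratio over genes ("rescaled"), which sets the typical gene to no change. These are bulk libraries, and fewer cells with a transcript and less of it per cell cannot be told apart.

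In the mm10 genome, 4 of the 5 genes lay within 321 kb of chromosome 7. Siglecf (NCBI gene 233186) spanned bases 43351341 to 43359475 on the plus strand, followed by Siglecg (243958) from 43408192 to 43418349 on the same strand. Cd33 (12489) from 43527399 to 43537424 and Siglece (83382) from 43648882 to 43672044 followed on the minus strand. Siglec1 (20612) lay alone on chromosome 2 from 131067801 to 131086778. The 190 bases before a RefSeq start site (GRCm38.p6, matched by symbol for those 4 genes) are shown for Siglecf and for Cd33 and Siglece, the most abundant Siglecs here. For Cd33 and Siglece the start used is an internal one, and the window lies inside the gene span given above. They are shown because 2 of the 3 share a run of 16 bases, printed in capitals, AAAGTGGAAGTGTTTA.
Siglecf promoter, chr7:43351151-43351340, plus strand: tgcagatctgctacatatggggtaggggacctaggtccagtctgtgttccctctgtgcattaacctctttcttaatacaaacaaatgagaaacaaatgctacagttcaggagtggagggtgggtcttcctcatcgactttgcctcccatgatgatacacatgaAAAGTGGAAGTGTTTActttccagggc
Cd33 promoter, chr7:43533172-43533361, minus strand: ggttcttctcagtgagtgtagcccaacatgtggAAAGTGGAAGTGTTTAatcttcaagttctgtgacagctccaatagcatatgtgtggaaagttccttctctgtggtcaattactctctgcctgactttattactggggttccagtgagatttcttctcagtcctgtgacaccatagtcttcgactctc
Siglece promoter, chr7:43660162-43660351, minus strand: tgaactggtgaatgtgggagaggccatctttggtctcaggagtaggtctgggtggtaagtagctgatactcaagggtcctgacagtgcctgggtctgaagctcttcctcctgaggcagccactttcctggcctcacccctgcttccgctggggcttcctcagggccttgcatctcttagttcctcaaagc

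The shared run began 27 bases before the Siglecf start and 157 bases before the internal Cd33 start. Of 32505 promoter windows of this length, searched on both strands, only those 2 held it (0.00615%). The run was picked as the longest stretch shared between member windows, so its presence in those 2 was fixed by the choice. It contains GGAAGT, the core bound by ETS factors such as PU.1, which 16.0% of all windows held and which the Siglece and Siglecg windows did not. The letters TTGCNNAA, bound by C/EBP factors, stood in 7.09% of windows. For the GATA family the letters searched were AGATAA, held by 7.35% of windows. Neither was found in the windows of the 4 members. A match of letters is a description of sequence and not a measured binding site. Siglecf and Cd33, which share the run, did not share a pattern of levels, as the values below show.

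Cd33 and Siglece were the abundant Siglecs of neutrophils, at 126 FPKM or more in every library of the tissue experiment. Siglecf and Siglecg were at 19.0 FPKM or less there, and Siglec1 was close to absent. In BM, PB and lung the mean level of Cd33 ranked 165th of 13312, 215th of 13465 and 291st of 13371 genes detected, and Siglece 284th, 205th and 475th. Siglecf ranked 4729th in BM, 2552nd in PB and 2607th in lung.

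Siglecf, the eosinophil and alveolar macrophage receptor, was lowest in BM neutrophils. It measured 7.30, 6.47 and 7.13 FPKM in the 3 BM libraries, 16.6, 19.0 and 18.2 FPKM in PB, and 13, 13.5 and 11.6 FPKM in lung. No 2 of the 3 tissues overlapped, and the order was BM, then lung, then PB. The means were 6.97 ± 0.438, 12.7 ± 0.995 and 17.9 ± 1.25 FPKM (SD, n = 3 each). Siglecf rose from BM to PB by a log2 fold change of 1.25 (SE 0.07, adjusted p = 1.93e-06, limma), and by 1.36 rescaled. Lung was above BM by 0.78 (SE 0.07, adjusted p = 1.52e-06), under the threshold of 1 that defines a call here together with an adjusted p below 0.05, and by 1.54 rescaled, which passed it (adjusted p = 2.08e-08). Lung was below PB by -0.47 as deposited (SE 0.08, adjusted p = 0.000668), but rescaled the sign turned, to 0.13 (adjusted p = 0.164), with 16.2 to 18.9 FPKM in lung overlapping 14.5 to 16.8 in PB. The level above BM thus held in both places and on both scales, while the order of lung and PB depended on the scaling.

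Markers of eosinophils and alveolar macrophages went in mixed directions. The 10 eosinophil markers summed to 58.7 to 66.5 FPKM in BM, nearly all of it Ear2 (57.4 to 64.9 FPKM), to 2.43 to 3.79 FPKM in PB and to 1.38 to 2.23 FPKM in lung, with the granule genes Epx, Prg2 and Prg3 at 0 in all 3 lung libraries. Ccr3, the eotaxin receptor of the same list, had the order of Siglecf, with means of 0.742 FPKM in BM, 0.963 in lung and 1.73 in PB. The 12 alveolar macrophage markers summed to 92.4 to 95.8 FPKM in lung and 94.0 to 101 FPKM in PB, mostly Chil3 and Itgax, which neutrophils also express, and to 2340 to 2480 FPKM in BM, nearly all Chil3. In lung Krt79 and Cidec were at 0, and in PB 7 of the 12 were at 0, Marco, Car4, Pparg and Fabp4 among them. Plet1 was higher in lung than in PB (means of 0.982 and 0.0403 FPKM, and 0 in BM), and so was Car4 (0.205 FPKM in lung, 0 in PB and BM). Itgax, the integrin CD11c, was at 12.1 to 14.2 FPKM in BM, 47.4 to 66.6 in PB and 55.1 to 58.7 in lung, and the part of these genes in the Siglecf values was not tested.

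Siglece, the inhibitory receptor of neutrophils, was highest in PB. It measured 183, 181 and 176 FPKM in BM, 302, 303 and 322 FPKM in PB, and 132, 127 and 126 FPKM in lung, with no overlap between tissues. Siglece fell from PB to lung by -1.26 (SE 0.05, adjusted p = 1.93e-07, limma), and by -0.62 rescaled, where the direction held (adjusted p = 1.71e-05) and the call did not. PB was above BM by 0.78 (SE 0.05, adjusted p = 3.35e-06; 0.90 rescaled), under the threshold. Lung against BM depended on the scaling, with -0.48 as deposited and 0.36 rescaled (adjusted p = 4.81e-08 and 1.41e-06).

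Cd33, the myeloid receptor, lay between 226 and 320 FPKM in all 9 tissue libraries. It measured 299, 304 and 312 FPKM in BM, 298, 320 and 251 in PB, and 227, 226 and 227 in lung, so that lung was below both and BM and PB overlapped. Lung differed from PB by -0.34 (SE 0.09, adjusted p = 0.00594) and from BM by -0.43 (SE 0.02, adjusted p = 2.38e-08), and both signs turned when rescaled, to 0.30 and 0.42. PB and BM differed by -0.08 (SE 0.09, adjusted p = 0.424), and by 0.04 rescaled. The 7 monocyte markers, of cells that also carry CD33, summed to 657 to 792 FPKM in BM, 303 to 334 in PB and 608 to 616 in lung, an order other than that of Cd33. Most of the sum was Ly6c2 in BM (mean 660 FPKM), Csf1r and Ly6c2 in PB (133 and 109) and Nr4a1 in lung (450). Ccr2, Cx3cr1, F13a1 and Ms4a6c had means of at most 0.365 FPKM in every tissue.

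Siglecg, the B cell inhibitory receptor, was highest in BM, where Siglecf was lowest. It measured 13.3, 14.1 and 15.6 FPKM in BM, 7.17, 7.18 and 5.09 in PB, and 4.50, 5.90 and 6.59 in lung, so that BM stood above both and lung and PB overlapped. Siglecg fell from BM to PB by -1.05 (SE 0.12, adjusted p = 0.000112, limma) and from BM to lung by -1.21 (SE 0.11, adjusted p = 1.92e-06), and the rescaled differences of -0.94 and -0.45 kept the direction but not the calls. Lung and PB differed by -0.17 (SE 0.15, adjusted p = 0.337), and by 0.38 rescaled (adjusted p = 0.055), the opposite sign. B cell markers were close to absent, with a sum over the 8 matched markers of 0.678 to 1.10 FPKM in BM, 0.276 to 0.484 in PB and 0.284 to 0.375 in lung. A stretch of 382 bases of Siglecg is 98.4% identical to the processed pseudogene Gm29791, so its counts are uncertain to the extent that reads from there were shared.

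Siglec1, the macrophage sialoadhesin, was below 1 FPKM in every sorted library and so under the filter. It had 43, 53 and 48 reads in BM, 33, 37 and 43 in PB, and 12, 17 and 15 in lung, the lung libraries lying below the others. In a fit with no filter on low genes, lung was below BM by -0.29 (SE 0.05, adjusted p = 0.000979) and below PB by -0.22 (SE 0.05, adjusted p = 0.00977), neither past the threshold. The 9 markers of resident macrophages summed to 22.3 to 27.0 FPKM in BM, 28.4 to 31.1 in PB and 28.5 to 28.8 in lung, most of it Adgre1 in PB and lung. The complement genes C1qa, C1qb and C1qc were highest in BM, as the mean of Siglec1 was, with means of 4.45, 5.23 and 3.49 FPKM there, 0.0174, 0.0169 and 0 in PB, and 0.635, 0.760 and 0.264 in lung. All 3 fell from BM to PB (-2.40, -2.60 and -2.17) and from BM to lung (-1.72, -1.82 and -1.84), also rescaled, and their part in the Siglec1 values was not tested. Genes of the interferon response, which raises Siglec1 in macrophages, were higher in PB than in BM for 9 of the 10 tested, beside 22.0% of all genes called there in either direction, led by Oasl1 (2.24), Oasl2 (2.12) and Ifit3 (2.03). From PB to lung 6 of 10 fell and 1 rose (2 and 1 rescaled), beside 27.2% of all genes in either direction, led by Cmpk2 (-2.24), Usp18 (-1.95) and Ifit1 (-1.55, not past the threshold rescaled).

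**Figure D1:**
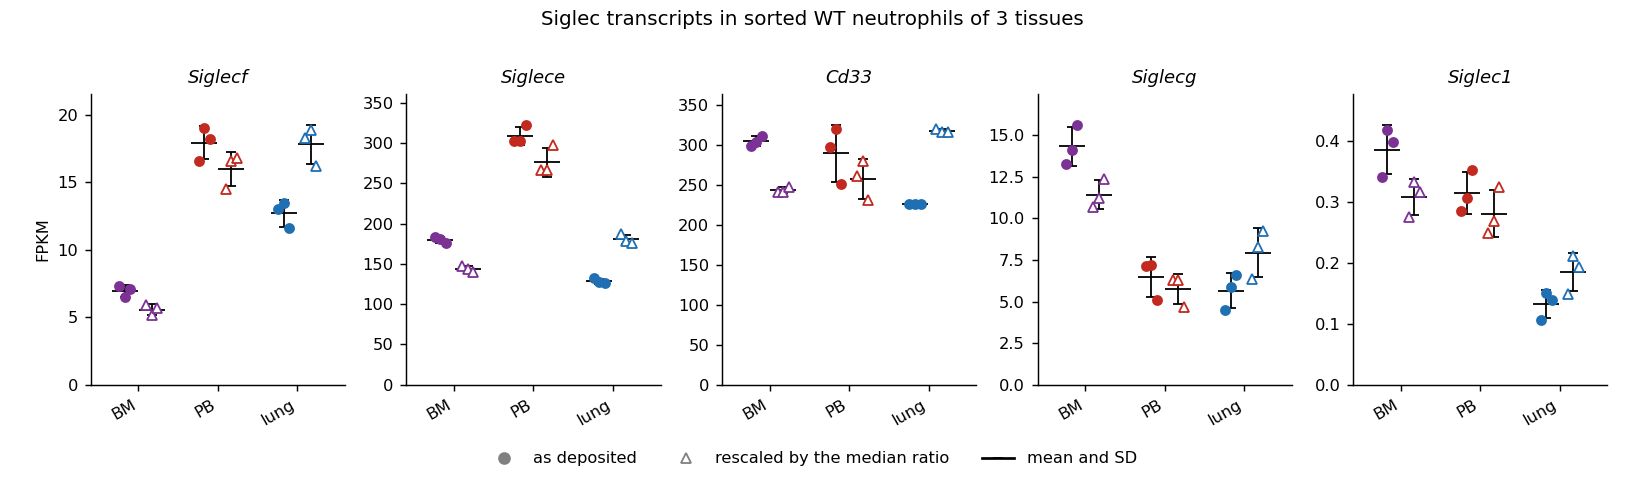
FPKM (vertical axis) of Siglecf, Siglece, Cd33, Siglecg and Siglec1 in neutrophils sorted from BM, PB and lung of WT mice, 3 libraries each. Circles are values as deposited, open triangles rescaled values, and black marks the mean and SD on each scale. Siglecf lies at 6.47 to 7.30 in BM and at 11.6 to 19.0 in PB and lung, and Siglece peaks in PB at 302 to 322, while the lung values of Siglecf and Cd33 sit below PB as deposited and their means lie above it when rescaled.

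Counted over the family, 1 of the 4 members tested passed in lung against PB (Siglece, lower), beside 27.2% of all genes tested. Lung against BM gave 1 (Siglecg, lower), beside 45.9%, and the rescaled fit gave 1 as well, but Siglecf, higher. PB against BM gave 2 (Siglecf higher, Siglecg lower), beside 22.0%. The median log2 difference of the 4 was -0.41 in lung against PB, -0.46 in lung against BM and 0.35 in PB against BM, with -0.54, -0.70 and -0.12 over all genes tested.

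In the Piezo1 experiment the lung and PB of WT mice were compared in other libraries, whose lung and PB values were deposited separately and joined here. Siglecf was 13.1 and 12.9 FPKM in WT lung against 26.0 and 25.7 in WT PB, a log2 difference of -0.94 (SE 0.05, adjusted p = 2.10e-06, limma), just short of the threshold, and of -0.23 rescaled (adjusted p = 0.00531). Lung was thus below PB on both scales here, whereas in the tissue experiment the rescaled sign was the other. Siglece fell again, with 98.4 and 104 FPKM in lung against 227 and 226 in PB (-1.16, SE 0.03, adjusted p = 8.90e-08; -0.42 rescaled). Siglecg fell as well, with 3.35 and 3.16 FPKM in lung against 8.25 and 7.18 in PB (-1.03, SE 0.09, adjusted p = 2.44e-05; -0.41 rescaled). Cd33 was 257 and 261 FPKM in lung and 255 and 251 in PB, a difference of 0.03 (SE 0.02, adjusted p = 0.243), and 0.77 rescaled (adjusted p = 1.51e-07). The members that passed were 2 of 4, beside 34.0% of all genes, with a median of -0.98 against -0.62 for all genes.

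In cKO mice, Siglece again fell from PB (309 and 288 FPKM) to lung (128 and 123 FPKM), by -1.24 (SE 0.05, adjusted p = 2.03e-06) and by -0.60 rescaled. Siglecf was 14.4 and 16.6 FPKM in cKO lung and 21.1 and 22.3 in cKO PB (-0.46, SE 0.08, adjusted p = 0.00195), and the sign turned to 0.16 when rescaled (adjusted p = 0.149). Siglecg was 3.32 and 3.26 FPKM in lung and 4.90 and 4.64 in PB (-0.43, SE 0.09, adjusted p = 0.00298), and 0.09 rescaled. Cd33 was 261 and 266 FPKM in lung and 275 and 266 in PB (-0.04, SE 0.04, adjusted p = 0.391), and 0.61 rescaled. Only Siglece passed, 1 of 4, beside 30.9% of all genes.

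The genotypes were compared within each tissue. No member passed both criteria, 0 of 4 in lung beside 0.995% of all genes and 0 of 4 in PB beside 3.65%. By the adjusted p alone, 2 of 4 passed in lung, where 50.7% of all genes did, and 3 of 4 in PB, where 49.7% did, so the shares of the members lay near or not far above those of all genes. The medians over the 4 were 0.13 in lung and -0.08 in PB, against 0.09 and 0.02 over all genes.

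Siglece was higher in cKO than in WT neutrophils of both tissues. In PB the cKO libraries, at 309 and 288 FPKM, lay above the WT libraries at 227 and 226, by 0.40 (SE 0.05, adjusted p = 0.000935, limma; 0.37 rescaled). In lung the cKO libraries at 128 and 123 FPKM lay above the WT libraries at 98.4 and 104, by 0.31 (SE 0.04, adjusted p = 0.000892; 0.20 rescaled). The direction of Siglece held on both scales, and the difference between the 2 tissues in this genotype effect was -0.09 (SE 0.06, adjusted p = 0.271) as deposited and -0.20 rescaled (adjusted p = 0.0249).

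Siglecf differed between the genotypes in opposite directions in the 2 tissues. In lung it was higher in cKO (14.4 and 16.6 FPKM) than in WT (13.1 and 12.9 FPKM), by 0.23 (SE 0.08, adjusted p = 0.0399), a difference that did not hold rescaled (0.13, adjusted p = 0.213) or without single libraries (adjusted p up to 0.221). In PB it was lower in cKO (21.1 and 22.3 FPKM) than in WT (26.0 and 25.7 FPKM), by -0.24 (SE 0.06, adjusted p = 0.0152; -0.27 rescaled), with an adjusted p up to 0.0976 when a library was left out. The difference between these genotype effects, tested over all 8 libraries, was 0.48 (SE 0.10, adjusted p = 0.00508), and 0.37 rescaled (adjusted p = 0.0178).

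Siglecg differed between the tissues in the same sense. It was lower in cKO PB (4.90 and 4.64 FPKM) than in WT PB (8.25 and 7.18 FPKM), by -0.59 (SE 0.09, adjusted p = 0.00248; -0.61 rescaled). In lung the genotypes overlapped, at 3.32 and 3.26 against 3.35 and 3.16 FPKM, with a difference of 0.01 (SE 0.09, adjusted p = 0.921), and -0.07 rescaled. The difference between the genotype effects was 0.60 (SE 0.12, adjusted p = 0.00381), and 0.49 rescaled (adjusted p = 0.00996).

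Cd33 showed no genotype difference past an adjusted p of 0.05 as deposited, with 0.02 in lung (SE 0.03, adjusted p = 0.488) and 0.09 in PB (SE 0.04, adjusted p = 0.0965). Rescaled, the lung difference was -0.09 (adjusted p = 0.0253), and the interaction went from -0.07 (SE 0.04, adjusted p = 0.209) to -0.18 (adjusted p = 0.00933). Siglec1 had 8 and 9 reads in WT PB, 0 and 4 in cKO PB, 3 and 1 in WT lung and 11 and 14 in cKO lung, where cKO lung lay above WT lung and cKO PB below WT PB. It lay under the filter, and in the fit with no filter its interaction was 0.25 (SE 0.04, adjusted p = 0.00797, past the threshold), resting on these few reads. By the adjusted p, the interaction was passed by 2 of 4 members, Siglecf and Siglecg, beside 48.2% of all genes tested, and by all 4 after rescaling. With no filter 3 of 5 passed, Siglec1 being the third.

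Markers of other cell types also differed between these groups. The eosinophil markers summed to 1.58 to 2.54 FPKM in WT lung and 4.67 to 5.81 in cKO lung, and to 7.65 to 8.56 in WT PB and 9.50 to 13.9 in cKO PB. Among them Ear2 rose in cKO lung, from a mean of 0.233 to 2.64 FPKM (1.56, SE 0.16, adjusted p = 4.91e-04, limma), while Prg2 was at 0 in all 8 libraries and Prg3 at 0 except in cKO lung. In that comparison Ear2 met the filter on low genes only through the cKO lung libraries. Il5ra was also higher in cKO lung (means of 0 in WT and 0.197 in cKO). Ear6 (0.561 in WT and 0 in cKO), Epx (0.0296 and 0.01) and Alox15 (0.0179 and 0) were lower there. Ccr3 was higher in cKO than WT in both tissues, with means of 2.35 and 1.22 FPKM in lung and 3.78 and 3.10 in PB. Ear2 was also higher in cKO PB (means of 4.72 in WT and 7.88 in cKO). Epx (0.104 in WT and 0 in cKO), Gata1 (0.106 and 0), Ear1 (0.0467 and 0) and Alox15 (0.0307 and 0.015) were lower in cKO PB, as Siglecf was. The alveolar macrophage markers summed to 69.0 to 71.3 FPKM in WT lung and 113 to 114 in cKO lung, and to 155 to 174 FPKM in WT PB and 270 to 271 in cKO PB. Most of these sums was Chil3 (means of 59.1 and 101 FPKM in lung, 155 and 263 in PB), which neutrophils express. Of the rest, Itgax (8.13 and 10.2 FPKM), Fabp4 (0.0765 and 0.589), Car4 (0.0824 and 0.467), Pparg (0 and 0.197) and Lpl (0 and 0.0425) were higher in cKO than WT lung. Plet1 (2.66 and 1.21) and Marco (0.0503 and 0) were lower, and Krt79, Cidec, Mrc1 and Atp6v0d2 were at 0 in both lung groups. In PB, Pparg (0 and 0.448) and Plet1 (0 and 0.207) were higher in cKO. Itgax, Cidec, Krt79, Fabp4, Mrc1 and Marco were lower there. In lung these sums and Siglecf were both higher in cKO, whereas in PB the sums were higher and Siglecf lower, and their part in the Siglecf values was not tested.

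**Figure D2:**
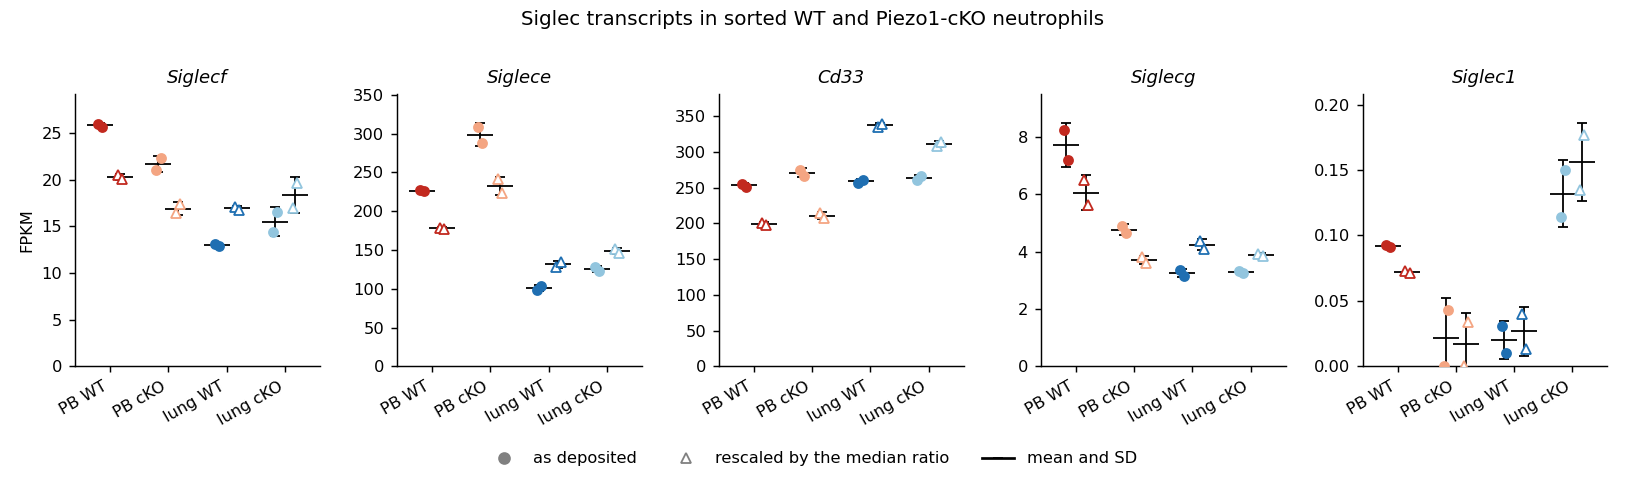
FPKM (vertical axis) of the 5 genes in PB and lung neutrophils by genotype (WT or Piezo1-cKO), 2 libraries a group, with circles as deposited, open triangles rescaled and black marks for the mean and SD on each scale. Siglece is higher in cKO than in WT in both tissues, and Siglecf is lower in cKO PB (21.1 and 22.3 against 26.0 and 25.7) and higher in cKO lung (14.4 and 16.6 against 13.1 and 12.9), where the rescaled values overlap.

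**Figure D3:**
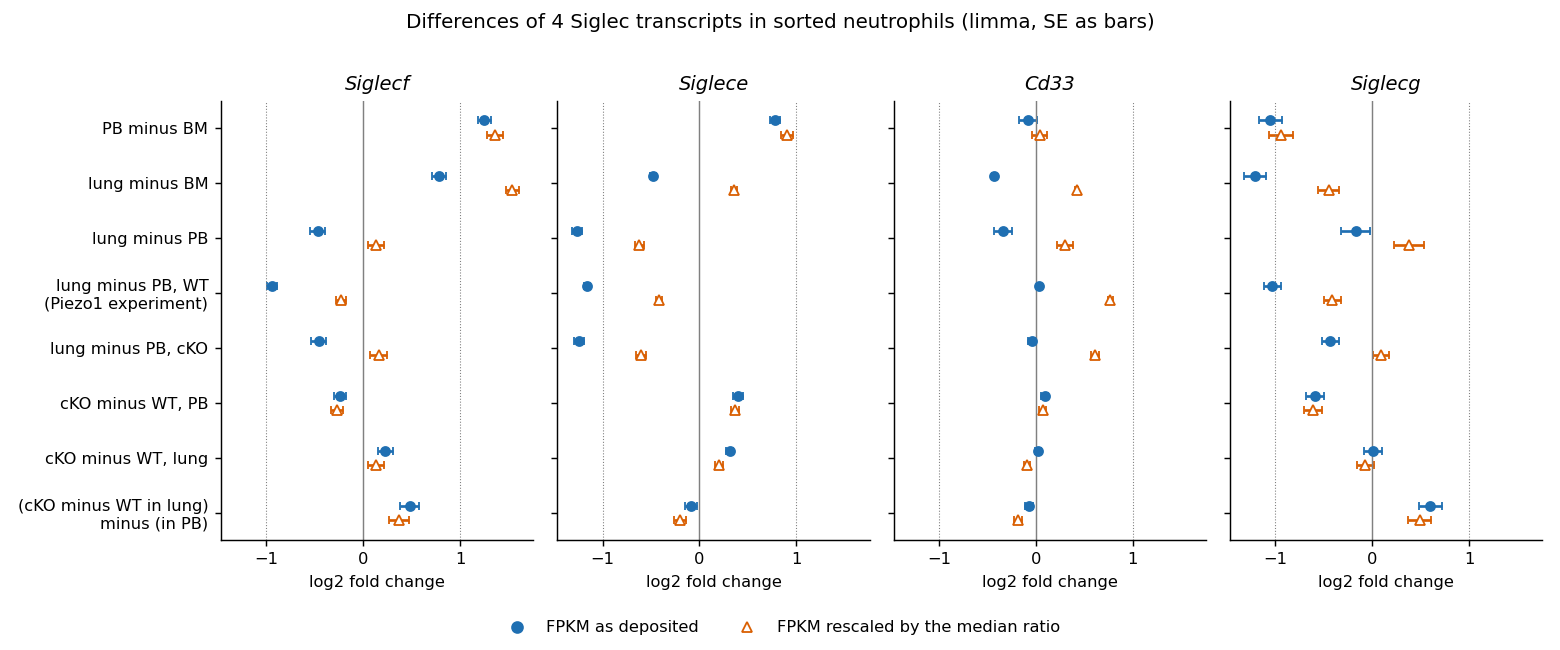
Log2 fold changes (horizontal axis, with SE bars) of Siglecf, Siglece, Cd33 and Siglecg in the comparisons of sorted neutrophils and for the interaction, circles as deposited and open triangles rescaled, with dotted lines at the threshold of 1. Siglecf in PB against BM passes on both scales (1.25 and 1.36), Siglece in lung against PB keeps its sign (-1.26 and -0.62), and Cd33 in lung against PB or BM changes sign.

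Whole lung holds all cell types, and the Siglecs stood in another order there. In control lungs Siglecf was at 9.85, 12.6 and 10.8 FPKM, above Siglec1 at 3.82, 3.44 and 3.63. Siglece (2.60, 3.10 and 3.41 FPKM), Cd33 (2.86, 2.17 and 2.99) and Siglecg (2.29, 2.36 and 2.21), the first 2 of which led in sorted neutrophils, stood lower. After PMN deletion Siglecf was at 9.04, 10 and 7.52 FPKM, overlapping the controls, a log2 difference of -0.29 (SE 0.13, adjusted p = 0.447, limma).

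Siglecg was the member whose whole-lung groups did not overlap, at 1.82, 1.70 and 0.957 FPKM after deletion, yet its difference of -0.42 (SE 0.15) did not pass (adjusted p = 0.379). Siglece differed by -0.03 (SE 0.12, adjusted p = 0.950), Siglec1 by -0.03 (SE 0.13, adjusted p = 0.953) and Cd33 by 0.11 (SE 0.15, adjusted p = 0.831), each within the spread between libraries. None of the 5 passed, beside 0.00715% of all genes (1 of 13990), with 1570 genes at an unadjusted p below 0.05. The neutrophil markers summed to 245 to 288 FPKM in control lungs and 59.7 to 149 after deletion, with none of the 8 tested called. The B cell markers summed to 188 to 207 and 115 to 159 FPKM, moving with Siglecg, and Cd22, the other B cell Siglec, was at 5.64, 6.50 and 6.04 FPKM in controls and 4.98, 5.85 and 2.95 after deletion (-0.37, SE 0.20, adjusted p = 0.538). Their part in the Siglecg values was not tested. The summed eosinophil markers (246 to 310 and 217 to 274 FPKM) and alveolar macrophage markers (732 to 912 and 871 to 883 FPKM) overlapped, as Siglecf did. Most of the eosinophil sum was Ear2 and Ear1 (means of 213 and 59.1 FPKM in controls). Il5ra (0.531 to 0.8 and 0.0901 to 0.454 FPKM), Ear6 (0.408 to 0.697 and 0.139 to 0.289) and Gata1 (0.33 to 0.392 and 0.16 to 0.288) were lower after deletion without overlap. Prg2 was higher (0 to 0.154 and 0.249 to 0.336), and the remaining eosinophil markers overlapped. Their part in the Siglecf values was not tested.

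**Figure D4:**
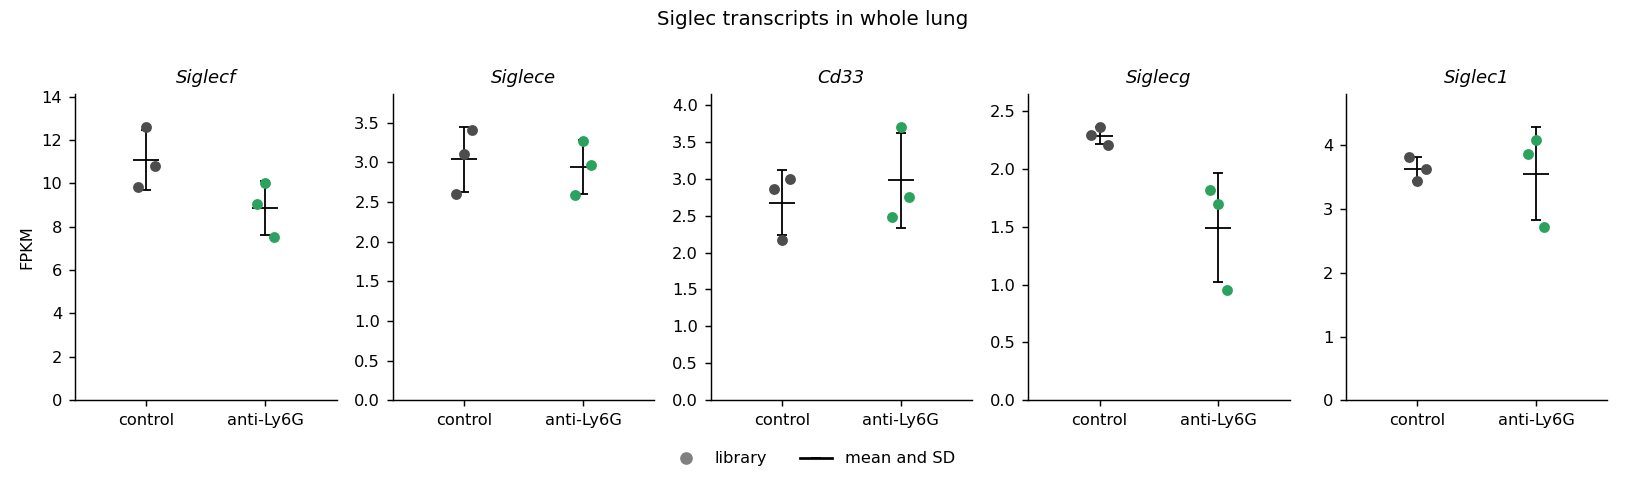
FPKM (vertical axis) of the 5 genes in whole lungs of control mice and of mice with PMN deletion (anti-Ly6G), 3 libraries each, with the mean and SD in black. Siglecf is highest at 7.52 to 12.6, and of the 5 genes only Siglecg has groups that do not overlap (2.21 to 2.36 against 0.957 to 1.82).

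Of the other Siglecs, Mag, known as the myelin-associated glycoprotein of glia, was measured in BM neutrophils at 2.88, 2.51 and 2.04 FPKM (99 to 146 reads). It was at 0.204 to 0.288 FPKM in PB and 0.0883 to 0.115 in lung, and fell from BM by -1.47 (SE 0.10, adjusted p = 4.19e-06) and -1.66 (SE 0.09, adjusted p = 4.36e-08), with both calls also made rescaled. Mag met the filter on low genes only through the BM libraries. Cd22 had 0 to 26 reads in the sorted libraries. Siglech, of plasmacytoid dendritic cells, and Siglec15, of osteoclasts, were at 0 in all 9 tissue libraries, and at 0 to 6 and 0 to 1 reads in the Piezo1 experiment.

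Downstream of the inhibitory Siglecs, 11 of 12 adaptors and phosphatases were tested, and 1 passed in lung against PB, beside 27.2% of all genes. Ptpn6, which encodes SHP-1, fell from PB to lung, from a mean of 459 to 144 FPKM (-1.67, SE 0.05, adjusted p = 2.62e-08; -1.03 rescaled), the same tissues between which Siglece fell. It fell between them in the Piezo1 experiment too, by -1.75 in WT and -1.47 in cKO mice (-1.0 and -0.82 rescaled). Against BM, lung neutrophils had higher Socs3 (2.57) and Syk (1.51), the kinase downstream of DAP12. Cbl (-1.66), Ptpn11 (-1.29), which encodes SHP-2, and Ptpn6 (-1.05) were lower, and these 3 did not pass rescaled. Of all genes tested, 45.9% passed in lung against BM. Between the genotypes none of the 11 passed in either tissue, beside 0.995% of all genes in lung and 3.65% in PB.

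Of the genes that make and attach the ligand, some differed between the tissues. Of the synthesis and transport genes, 3 of 5 tested were lower in lung than in BM, Cmah (-1.92), which makes the glycolyl form of sialic acid, Gne (-1.50), which starts the pathway, and Nans (-1.20, not past the threshold rescaled), beside 45.9% of all genes. In lung against PB 0 of 4 synthesis genes and 1 of 8 sialyltransferases passed, beside 27.2%. In PB against BM, Cmah (-1.11) and Cmas (-1.08) were lower, neither past the threshold rescaled. Of the sialyltransferases, 5 of 8 tested passed in PB against BM, with St3gal6 (1.73), St8sia4 (1.61) and St3gal4 (1.48) higher and St3gal2 (-2.22) and St3gal5 (-1.93) lower, all 5 also rescaled, beside 22.0% of all genes. In lung against BM, St3gal6 (2.32) and St3gal1 (1.18) were higher and St3gal2 (-2.95) and St3gal5 (-1.64, -0.80 rescaled) lower, and St8sia4 fell from PB to lung (-1.76). Casd1, which adds acetyl groups to sialic acid, was the single one of 2 tested sialidase and esterase genes to pass, lower in lung than BM (-1.49, -0.74 rescaled).

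Of these lists, the single call between genotypes was Slc35a1, the transporter of CMP-sialic acid into the Golgi. It was lower in cKO than WT PB (0.142 against 1.42 FPKM, log2 difference -1.08, SE 0.10, adjusted p = 0.000455, limma, and -1.09 rescaled), beside 3.65% of all genes called there. Slc35a1 met the filter on low genes only through the WT PB libraries, where its mean lay close to the filter's minimum. The sulfotransferases that can make the sulfated ligands of Siglec-F were under the filter in all sorted libraries, and none of the 5 tested in whole lung passed.

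Among 14 other paired receptors, Trem1, an activating receptor that signals through DAP12, rose from PB to lung (212 to 856 FPKM; 2.01, SE 0.05, adjusted p = 1.28e-08) together with Lilrb4a (1.22). Cd200r1 (-1.96), Cd200r4 (-1.02) and Pilrb1 (-1.01) fell, the last 2 not past the threshold rescaled. Siglece thus lay with the 3 lower of the 5 that passed, beside 27.2% of all genes. The median of the 14 was -0.45, beside -0.54 over all genes.

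The genes whose levels most resembled Siglecf over the 17 sorted libraries, by Pearson's r of log2 values centred within each experiment, were St3gal4 (r = 0.979), Abi3 (0.974), Slc44a1 (0.973), Marcks (0.971) and Pip4k2a (0.97), of 7183 genes ranked. St3gal4 had means of 6.82, 20.9 and 13.8 FPKM in BM, PB and lung, the same order as Siglecf. Those most like Siglece were Klhdc2 and Ing1 (0.991 each), Zfp36l2 (0.990), Btbd10 (0.989) and Slu7 (0.988). Siglecf and Siglece correlated at 0.635, and Siglecf and Cd33 at -0.244. The libraries share their tissue groups and their scaling, so these coefficients are descriptions.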

How the data were processed

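Poly(A) RNA of sorted neutrophils and of whole lung was sequenced as 150 bp pairs. The authors cleaned reads with fastp, aligned them with HISAT2 to mm10, counted genes with HTSeq and deposited FPKM per gene and library (versions are not given in the sources used here). The sources name different library kits. Deposited columns of group means of normalised counts (unit: signal) served only to check recovered reads, and the authors' own fold changes, p and q values were not used.

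The 5 members and all gene lists were chosen with earlier results of these data known. Named genes were all members and other Siglecs, in each list those called (all if 6 or fewer, otherwise the top 3 by absolute log2 fold change), and the 5 genes most like Siglecf and Siglece.

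Fits used limma 3.58.1 (trend, robust) in R 4.3.3 on log2(FPKM + 1), within 1 experiment at a time. They covered genes at 1 FPKM or more in at least 3 libraries (2 in the Piezo1 experiment). A gene can meet this filter only through the group where it is high, as Mag, Gne, C1qa, C1qb, C1qc, Slc35a1 and Ear2 did here. Calls of such genes carry that limit. Lung and PB values of the Piezo1 experiment were deposited separately and joined by gene identifier. Its lung against PB comparisons and its interaction therefore cross the 2 deposits. Fold changes on this scale understate changes of low genes. P-values were adjusted by Benjamini-Hochberg over all genes tested. A gene was called at an adjusted p below 0.05 if its log2 fold change was also above 1 in size (0.5 in whole lung), and for the interaction by the adjusted p alone. Whole reads were recovered from the FPKM steps of the sorted libraries (100.0% of values whole within 0.1), and a count of 0 allows up to 3 reads, counting error only. Whole-lung depth is unknown. Alternatives were rescaling, pseudocount 0.1, no filter, a replicate block, leaving out each library, and edgeR 4.0.16 and DESeq2 1.42.0 on recovered reads. Scripts were tested on simulated data. Sequence likeness of transcripts came from blastn 2.17.0. Where a symbol had 2 rows in the whole-lung table, the higher row was used.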

Additional observations from a re-analysis of the deposited data

Results flagged for a closer look

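For 2 members the genotype difference itself differed between tissues in the Piezo1 experiment. For Siglecf, cKO minus WT in lung less cKO minus WT in PB was 0.48 on the log2 scale (SE 0.10, adjusted p = 0.00508, limma), with cKO above WT in lung and below it in PB. For Siglecg it was 0.60 (SE 0.12, adjusted p = 0.00381), with cKO below WT in PB and overlapping it in lung. Both groups of comparison rest on 2 libraries each, 48.2% of all genes passed the same test, and DESeq2 on recovered reads called Siglecf but not Siglecg. No group had the 4 libraries needed for a test of single outlying libraries.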

How the results depend on the processing

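The call counts and several signs depended on the scaling of the libraries. After rescaling, and with edgeR TMM, edgeR RLE and DESeq2 on recovered reads, 0 members passed in lung against PB of the tissue experiment, of WT mice and of cKO mice of the Piezo1 experiment, in place of 1, 2 and 1, because the median shift left the differences under the threshold. Rescaled, 1 passed in PB against BM in place of 2, and 4 passed the interaction in place of 2 (4 with edgeR TMM and RLE as well). By adjusted p alone, 3 passed in lung against PB (beside 85.5% of all genes) and 4 in lung against BM (92.6%). The counts were 2 in cKO against WT lung (50.7%), 3 in cKO against WT PB (49.7%) and 3 in lung against PB of cKO mice (84.5%). With a difference above 1 also required, 0 passed the interaction.

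Signs reversed as follows, in the order rescaled, edgeR TMM, edgeR RLE and DESeq2. In lung against PB, Siglecf went to 0.13, 0.13, 0.14 and 0.14, Cd33 to 0.30, 0.27, 0.29 and 0.29, and Siglecg to 0.38, 0.43, 0.45 and 0.45. In lung against BM, Siglece went to 0.36, 0.31, 0.36 and 0.36, and Cd33 to 0.42, 0.37, 0.42 and 0.42. In PB against BM, Cd33 went to 0.04, 0.03, 0.05 and 0.05. In lung against PB of cKO mice, Siglecf went to 0.16, 0.13, 0.16 and 0.16, Siglecg to 0.09, 0.09, 0.12 and 0.12, and Cd33 to 0.61, 0.58, 0.61 and 0.61. In cKO against WT lung, Cd33 went to -0.09 in all 4 and Siglecg to -0.07, -0.10, -0.10 and -0.10. In whole lung, Siglec1 and Siglece went to 0.00 rescaled.

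Leaving out single libraries gave 1 to 2 members in PB against BM (1 without PB replicate 3 and without BM replicate 3) and 1 to 2 in lung against PB of WT mice of the Piezo1 experiment (1 without lung WT replicate 2 and without PB WT replicate 1). It turned the sign of Cd33 in PB against BM (-0.16 to 0.02, 0.02 without PB replicate 3), of Siglecg in cKO against WT lung (-0.02 to 0.04, -0.02 without WT replicate 2), and in whole lung of Cd33 (-0.02 to 0.20), Siglec1 (-0.12 to 0.11) and Siglece (-0.11 to 0.03), all small beside their SE. Libraries with the same number did not deviate together (20 correlations of deviations from -0.094 to 0.082). Groups of 2 libraries have mirrored deviations, so their correlations repeat and are not separate values. These correlations cannot show whether the numbers pair the samples. With the replicate block the members called were 1 in lung against PB, 1 in lung against BM, 2 in PB against BM, 0 and 0 in cKO against WT lung and PB, 2 and 1 in lung against PB of WT and cKO mice, 2 for the interaction and 0 in whole lung, each the same count as without the pairing. Without the filter on low genes Siglec1 entered the fits of sorted neutrophils, and the interaction was then passed by 3 members in place of 2, with Siglec1 resting on 0 to 14 reads a library.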
